A study of Brassica oleracea var. italica with 2 samples.

Results

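Cytochrome P450 genes were examined as a family in broccoli seedlings carrying an antisense construct against BoEMF2.1 and in seedlings carrying an empty vector. The members were all genes whose array annotation gives a single gene with a P450 name made of family number, subfamily letter and member number, such as CYP71B22. This rule found 23 genes among the 13350 named genes of the array, with 1 probe set each. Of these, 19 belong to the CYP71B subfamily, and CYP51G2, CYP78A9, CYP79A2 and CYP84A4 are the single members of their families. Membership follows from names alone and no measured value, though the choice of members was made with earlier results of these data known. Of the 13513 probe sets with a single gene, 11933 are named by a locus code, so P450 genes listed there by locus were not analysed here. Another 8730 probe sets have no gene name and 503 name several genes, so the rule leaves those out as well.

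P450 enzymes are haem proteins that use oxygen and electrons from NADPH to oxidise small molecules. Plants have many more of them than animals, and they act in the synthesis of sterols, hormones, lignin, pigments and defence compounds. In the cabbage family, CYP79 and CYP83 enzymes start the synthesis of glucosinolates, the mustard oil precursors of broccoli. The CYP71 clan, also called A-type, is the largest clan of plant P450 genes and held 22 of the 23 genes here. CYP51G2 belongs to the CYP51 clan, the sterol demethylases, which is shared with animals and fungi. The CYP71B subfamily is one of the largest in Arabidopsis, with many genes in tandem arrays, and most of its members have no assigned substrate.

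One array held RNA of whole 11-day-old broccoli seedlings (Brassica oleracea var. italica, cultivar Elegance) with an antisense copy of BoEMF2.1 under the 35S promoter, a viral promoter active in most plant tissues. The other held RNA of seedlings of the same cultivar and age with pCAMBIA1380, the vector without insert. Both sets grew on the same agar medium under 16 h of light and 8 h of darkness at 21 °C. BoEMF2.1 is a relative of Arabidopsis EMF2, a Polycomb group gene that represses flowering. Its own level, a check of the labels, is not reported here. The number of transgenic lines and of seedlings per sample was not given in the sources used here. With 1 array per group there is no replicate error. No difference was tested, no p-value was computed, and "higher" and "lower" refer to these 2 arrays alone.

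The arrays carry Arabidopsis probes, so broccoli RNA was read across species. A low signal may reflect a sequence difference from Arabidopsis or low expression, so the signal of one probe set against another's gives no order of expression between genes. Near-identical CYP71B copies may hybridise to one another's probe sets, so each value may hold more than 1 broccoli gene. In whole seedlings, fewer cells of a type and less RNA per cell cannot be told apart. Deposited values are MAS5 signal intensities on a linear scale. The median signal of each array was used as its floor, at 302.7 on the antisense array and 317.6 on the vector array. A call was a ratio of 2-fold or more with both signals above the floor. Ratios are log2 of antisense over vector signal, and a gene above the floor on 1 array alone has a bound, written "at least". Under scaling to the hybridization controls in place of the deposited scale, every ratio is lower by 0.19, so positive ratios below that turn negative.

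Of the list of green shoot markers, 6 of 11 genes were named on the array, with signals of 2738.5 to 7226.8 on the antisense array and 4151.5 to 13222.1 on the vector array. Their summed signal was 30821.2 on the antisense array and 43313.1 on the vector array. Of the root markers, 3 of 7 were named (EXPA7, EXPA18 and PYK10), and their sum was 4097.2 on the antisense array and 2835.3 on the vector array. None of the 6 seed markers was named. The share of tissues in the P450 results was not tested. Across 9382 probe sets above both floors, the median ratio was -0.02, with an SD of 0.54. The SD of a single ratio was 0.44, from 29 genes with a pair of probe sets above both floors, and it covers probe noise within these arrays, not variation between plants.

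Of the 23 P450 genes, 6 were above both floors (26.1%), 2 on the antisense array alone, 1 on the vector array alone, and 14 on neither (60.9%). Over the 13350 named genes, taken by the brightest probe set, 37.0% were above both floors and 45.6% on neither. Over all probe sets these shares were 41.2% and 41.3%. CYP71B22 was the single gene to pass 2-fold, and it was lower in antisense seedlings. The count lower by 2-fold or more was therefore 1 of 6, against 3.51% of all probe sets above both floors, and the count higher was 0 of 6, against 3.02%. Over all probe sets these shares stand for 329 lower and 283 higher, which became 585 lower and 154 higher under scaling to the hybridization controls, while the P450 counts stayed at 1 and 0. None of the 3 bounds reached 2-fold, against 10.1% of all probe sets above 1 floor alone. The signal was higher on the antisense array for 4 of the 6, against 47.9% of all such probe sets. Their median ratio was 0.50, or 0.52 over the other 5 without CYP71B22. With 6 genes, neither count sets these P450 genes apart from the array as a whole.

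**Figure D1:**
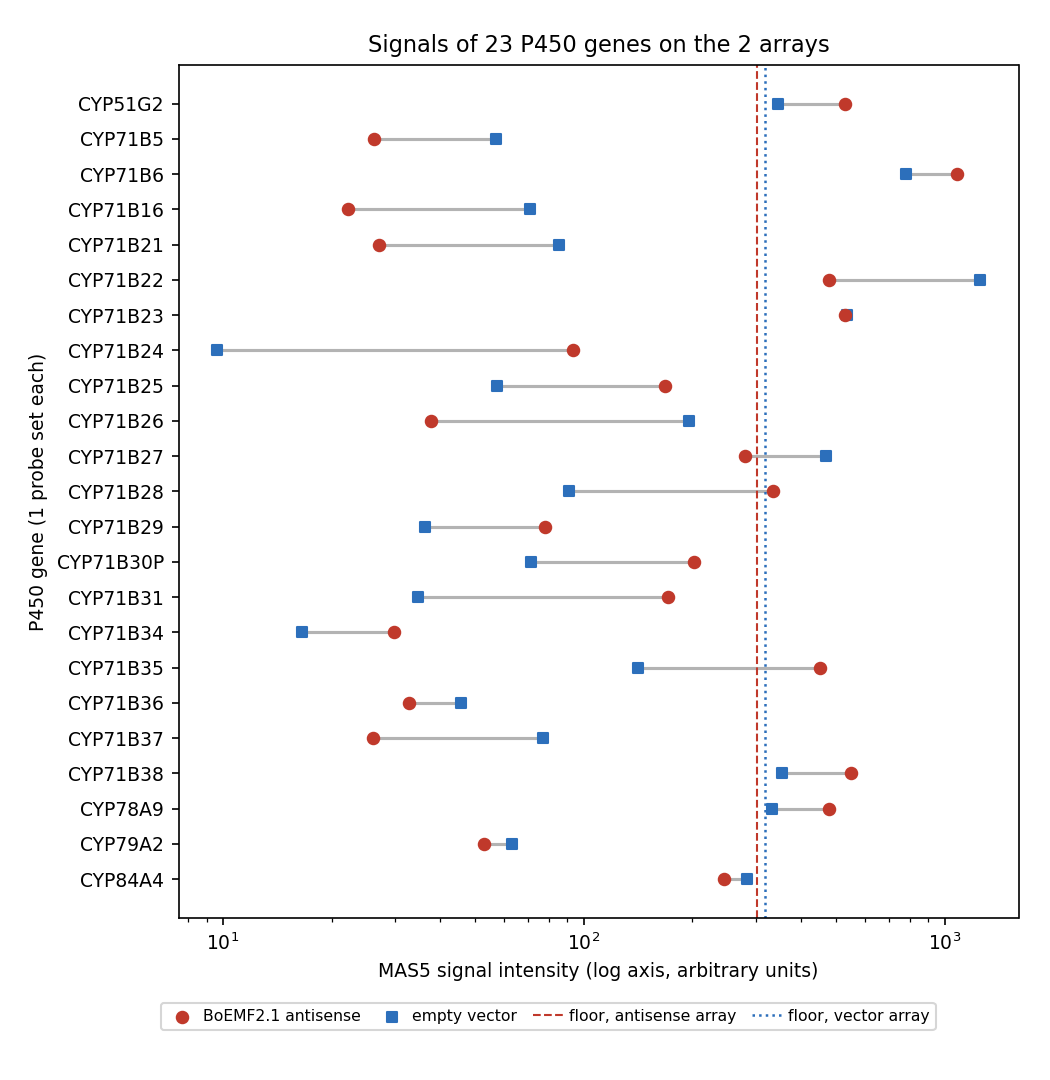
MAS5 signal intensity (log axis, arbitrary units) of each of the 23 P450 genes on the antisense array (red circles) and the vector array (blue squares), with grey lines joining the pair and vertical lines at the floors of 302.7 (antisense) and 317.6 (vector). In 6 genes both points lie right of the floors, and in 14 genes both lie left of them.

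CYP71B22, a member of the CYP71B subfamily with no assigned substrate, had a signal of 477.5 on the antisense array and 1256.1 on the vector array. It was 2.63-fold lower in antisense seedlings, a ratio of -1.40. Both signals were above the floors, but with the floor at the 75th percentile the antisense signal fell below it and the ratio became a bound of -1.02. The vector signal stood at percentile 90.0 of its array while the antisense signal stood at percentile 66.3. Of the 9382 probe sets above both floors, 73 (0.778%) had a ratio as low or lower. Because CYP71B22 was picked as the lowest of the measured P450 genes, neither this share nor the control ranges that follow are a test. Plant control probe sets above both floors, 16 in number, ranged from -0.78 to 0.86, and the 18 hybridization controls ranged from -0.19 to 0.56.

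CYP71B23, the next gene by gene ID in the annotation, had 528.2 on the antisense array and 535.0 on the vector array, a ratio of -0.02. Its sign turned positive when the arrays were centred, quantile normalized or fitted by loess. The ratio of CYP71B22 was lower than that of CYP71B23 by a log2 difference of -1.38. The SD for the difference between a pair of ratios was 0.62. CYP71B22 was singled out for the lowest ratio among the measured P450 genes, so this comparison is not a test. A probe set shared by CYP71B20 and CYP71B19, which the rule leaves out because it names more than 1 gene, had 1274.0 on the antisense array and 1154.6 on the vector array, a ratio of 0.14. CYP71B21, whose gene ID comes just before that of CYP71B22, had 27.1 on the antisense array and 85.1 on the vector array. Both signals were below the floors, so no call was made for CYP71B21. Among the probe sets of these neighbouring gene IDs above both floors, CYP71B22 alone was past 2-fold.

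CYP71B6 is known in Arabidopsis for the oxidation of indole-3-acetonitrile, a product of the indole aldoxime pathway. Its signal was 1082.1 on the antisense array and 780.4 on the vector array, 1.39-fold higher in antisense seedlings, a ratio of 0.47. CYP71B38, with no assigned role, had 551.4 on the antisense array and 353.8 on the vector array, 1.56-fold higher, a ratio of 0.64. This was the highest ratio among the 6 genes measured on both arrays, and it lay at percentile 90.3 of all such probe sets. Its vector signal was close to the floor of 317.6.

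Outside CYP71B, both measured genes were higher in antisense seedlings and neither reached 2-fold. CYP51G2 belongs to the family whose Arabidopsis member CYP51G1 removes a methyl group from a sterol precursor. Its signal was 528.6 on the antisense array and 345.5 on the vector array, 1.53-fold higher, a ratio of 0.61. CYP78A9, which promotes the growth of fruits and seeds in Arabidopsis, had 478.1 on the antisense array and 333.3 on the vector array, 1.43-fold higher, a ratio of 0.52. As with CYP71B38, the vector signals of both genes were close to the floor. The 4 positive ratios of CYP51G2, CYP71B38, CYP71B6 and CYP78A9 lay between 0.47 and 0.64, near the SD of a single ratio of 0.44.

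**Figure D2:**
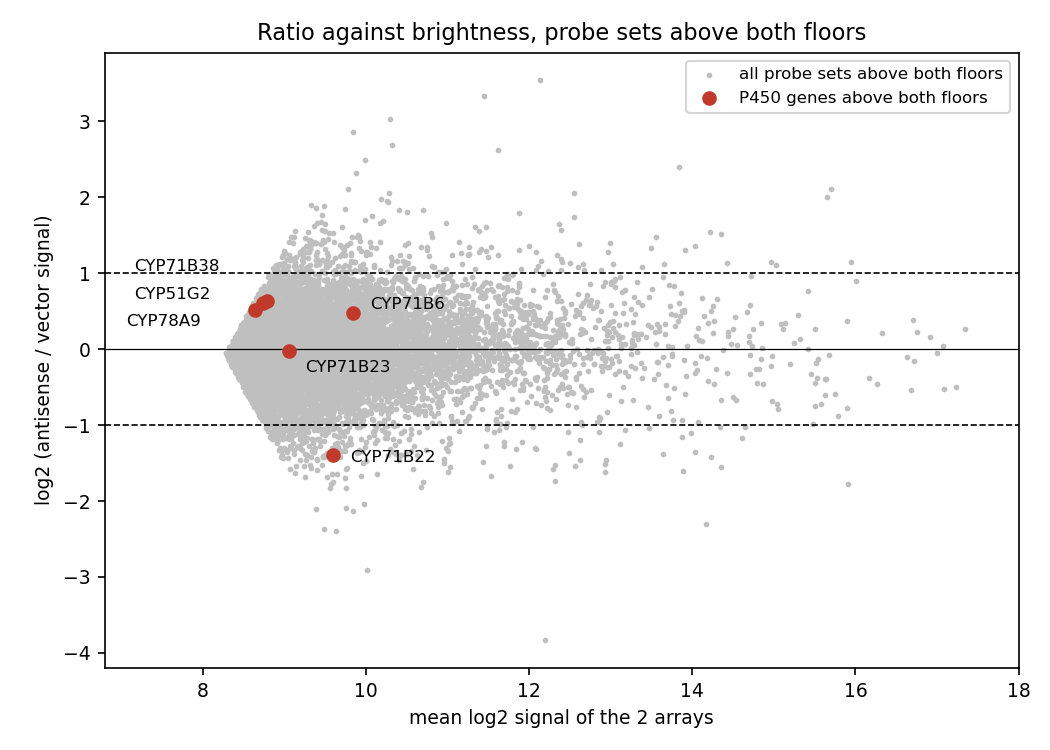
Log2 ratio of antisense over vector signal (vertical axis) against the mean log2 signal of both arrays (horizontal axis) for the 9382 probe sets above both floors (grey) and the 6 P450 genes among them (red, named). Dashed lines mark 2-fold either way. CYP71B22 at -1.40 lies below the lower line, and the other 5 lie between -0.02 and 0.64.

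Among genes above the floor on 1 array, CYP71B35 had 451.5 on the antisense array and 141.1 on the vector array, which gives at least 1.42-fold higher in antisense seedlings. CYP71B28 had 335.2 on the antisense array and 90.9 on the vector array, at least 1.06-fold higher. CYP71B27 had 280.2 on the antisense array and 468.2 on the vector array, at least 1.55-fold lower. Each of these genes lay above the floor on one array and below it on the other, and none gave a bound of 2-fold. The bound of CYP71B28 turned to -0.12 under scaling to the hybridization controls. By the signals as deposited, without a floor, the ratios were 1.68 for CYP71B35, 1.88 for CYP71B28 and -0.74 for CYP71B27.

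The 14 genes below both floors had signals of 22.2 to 244.0 on the antisense array and of 9.6 to 283.9 on the vector array. Their deposited signals differed by 2-fold or more in 10 of 14 (71.4%), with 5 higher and 5 lower in antisense seedlings. Among all 9389 probe sets below both floors this share was 42.9%, and the SD of their log2 ratios was 1.43, against 1.71 in the 14 genes. The 14 genes were also dimmer, with a median geometric mean signal of 50.6, against 77.5 in all probe sets below both floors. No call was made for any of them.

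Within this dim group, the widest difference upward was CYP71B24, with 93.4 on the antisense array and 9.6 on the vector array. CYP71B31, which in Arabidopsis flowers oxidises the scent compound linalool, had 171.2 on the antisense array and 34.6 on the vector array. CYP71B25 had 168.0 on the antisense array and 57.3 on the vector array. CYP71B30P, whose suffix marks a pseudogene in P450 naming, had 201.9 on the antisense array and 71.6 on the vector array, and CYP71B29 had 78.0 on the antisense array and 36.3 on the vector array. These 5 antisense signals were higher and all stayed under the floor of 302.7.

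In the other direction, CYP71B26 had 37.6 on the antisense array and 195.7 on the vector array, the widest difference downward. CYP71B16 had 22.2 on the antisense array and 71.0 on the vector array. CYP71B21 had 27.1 on the antisense array and 85.1 on the vector array. All 3 vector signals were themselves under the floor of 317.6. CYP71B37 had 26.1 on the antisense array and 77.2 on the vector array, and CYP71B5 had 26.2 on the antisense array and 57.0 on the vector array.

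The deposited signals of the remaining dim genes were less than 2-fold apart. CYP79A2, which in Arabidopsis turns phenylalanine into its aldoxime on the way to benzylglucosinolate, had 53.0 on the antisense array and 63.1 on the vector array. CYP84A4, which in Arabidopsis acts in the synthesis of arabidopyrones from a phenylpropanoid precursor, had 244.0 on the antisense array and 283.9 on the vector array. CYP71B34 had 29.7 on the antisense array and 16.6 on the vector array. CYP71B36 had 32.7 on the antisense array and 45.8 on the vector array. These 4 genes had signals below the floors in both kinds of seedling, so no call was made for CYP79A2 or CYP84A4.

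Many CYP71B genes lie side by side in Arabidopsis. Gene IDs of 11 members form a run, and all 319 locus-named genes with gene IDs within 400 of it are on Arabidopsis chromosome 3, with the run between loci AT3G26140 and AT3G26350. Positions in broccoli were not analysed here. Of the 11 genes, 2 were above both floors (CYP71B22 and CYP71B23), 1 on the antisense array alone (CYP71B35) and 8 on neither. By deposited signals 4 were higher and 7 lower in antisense seedlings, with signals of 22.2 to 528.2 on the antisense array and 9.6 to 1256.1 on the vector array. With 8 of the 11 below both floors, no direction was read for the run. CYP71B22 and CYP71B23 stood at -1.40 and -0.02, and CYP71B35 has a bound alone. A second run of 3 genes on chromosome 3, CYP71B5, CYP71B30P and CYP71B31, was below both floors throughout. On chromosome 1, the gene IDs of CYP71B28 and CYP71B29 form another run. Runs rest on gene IDs alone, so a neighbouring gene with a distant ID, as CYP71B27 has, would be missed.

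**Figure D3:**
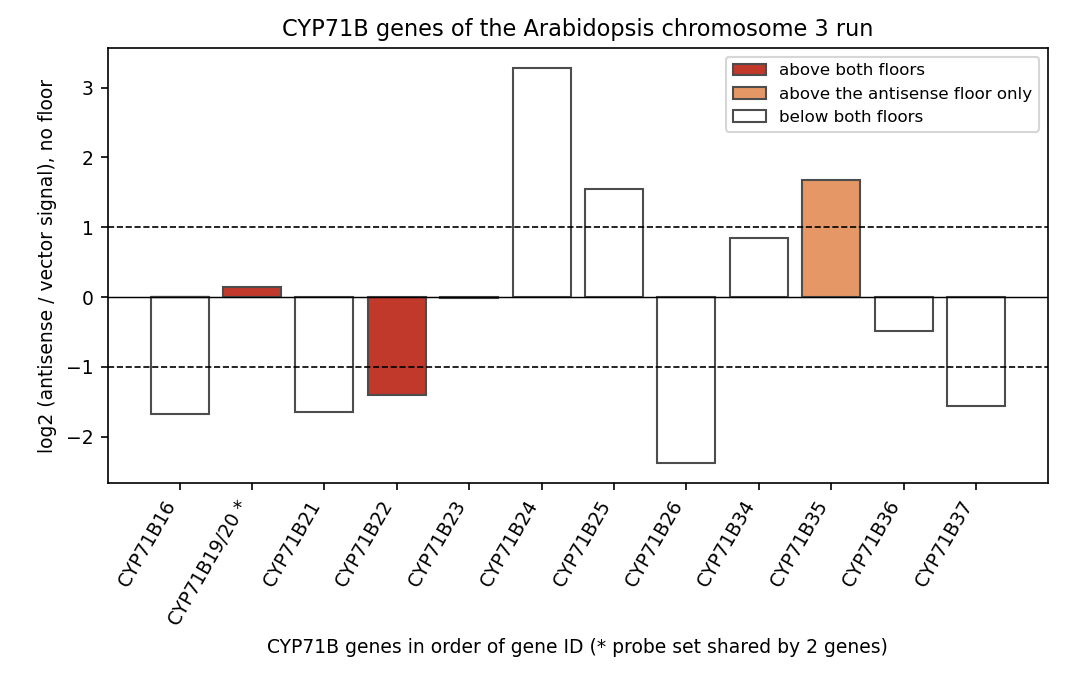
Log2 ratio of antisense over vector signal, from the deposited signals without a floor, for 11 CYP71B genes of the Arabidopsis chromosome 3 run in order of gene ID, and for the probe set shared by CYP71B19 and CYP71B20. Red bars are above both floors, the orange bar (CYP71B35) is above the antisense floor alone, white bars are below both, and dashed lines mark 2-fold. Of the 11 genes, 4 are positive and 7 negative, and 8 are white.

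Across the whole CYP71B subfamily, 4 of 19 genes were above both floors, with a median ratio of 0.23 and a range of -1.40 to 0.64, and 12 were below both. By deposited signals, 10 of the 19 were higher and 9 lower in antisense seedlings. Over all probe sets, dim ones included, 10890 were higher and 11844 lower. Since 12 of the 19 genes were below both floors, no direction was read for the subfamily. P450 probe sets outside the rule added little. The probe set shared by CYP79C2, a CYP79 family gene, and AT1G58265 had 185.6 on the antisense array and 422.9 on the vector array, at least 1.40-fold lower, and that of CYP718 had 58.4 on the antisense array and 51.4 on the vector array, below both floors.

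Genes that act beside P450 enzymes in their pathways were taken from 6 lists with 183 distinct entries, of which 15 were named on the array and 10 had a signal above at least 1 floor. Of these, 8 were above both floors, with a median ratio of 0.32. In antisense seedlings 1 was 2-fold or more higher (against 3.02% of all probe sets above both floors) and 0 were 2-fold or more lower (against 3.51%). The higher gene is FMO, which was matched by symbol alone and whose pathway is not established. None of the 13 entries for electron donors of P450 enzymes, such as the NADPH reductases ATR1 and ATR2, was named. None of 37 P450 genes sought by another symbol, such as C4H or KAO1, was matched either. The symbol LCR was named, but it was left out because its gene ID is not that of the P450 gene LACERATA.

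In the glucosinolate list, 3 of 6 named genes were measured. FMO, a flavin-containing monooxygenase, had 2408.4 on the antisense array and 623.7 on the vector array, 3.86-fold higher and the single call among these genes. It was matched by symbol alone and the annotation does not place it further, so its part in glucosinolate synthesis is not established. UGT74B1, which adds the glucose of the glucosinolate core in a late step, had 917.4 on the antisense array and 682.1 on the vector array, a ratio of 0.43. BCAT4, which starts the chain elongation of methionine, had 520.7 on the antisense array and 273.4 on the vector array, at least 1.64-fold higher. GSTU20, AOP1 and AOP3 were below both floors, and CYP79A2, which stands before UGT74B1 in the pathway, was below both as well.

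In the phenylpropanoid list, HCT, which acts with CYP98A3 in lignin synthesis, had 580.5 on the antisense array and 467.1 on the vector array, a ratio of 0.31. CCOAMT, a methyltransferase of the same pathway, had 765.5 on the antisense array and 611.6 on the vector array, a ratio of 0.32. DFR, an enzyme of anthocyanin synthesis, had 338.3 on the antisense array and 363.4 on the vector array, a ratio of -0.10. CCR2, a cinnamoyl-CoA reductase, had 302.8 on the antisense array, at the floor, and 146.7 on the vector array. All 4 were within 2-fold or without a usable bound.

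For sterols, CPI1 is the isomerase that makes the substrate of CYP51 enzymes. Its signal was 677.1 on the antisense array and 830.1 on the vector array, a ratio of -0.29. CYP51G1, the member named above for the demethylation, was not among the P450 genes found. The ratio of 0.61 for CYP51G2 was therefore not read as that step. BRL1, a receptor kinase of the brassinosteroid receptor family, was below both floors. OPCL1, a ligase of jasmonate synthesis, had 826.7 on the antisense array and 616.2 on the vector array, a ratio of 0.42. FACT, which makes caffeate esters of suberin-associated waxes, had 613.9 on the antisense array and 595.3 on the vector array, a ratio of 0.04, and the wax ester synthase gene WSD1 was below both floors. None of these reached 2-fold.

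**Figure D4:**
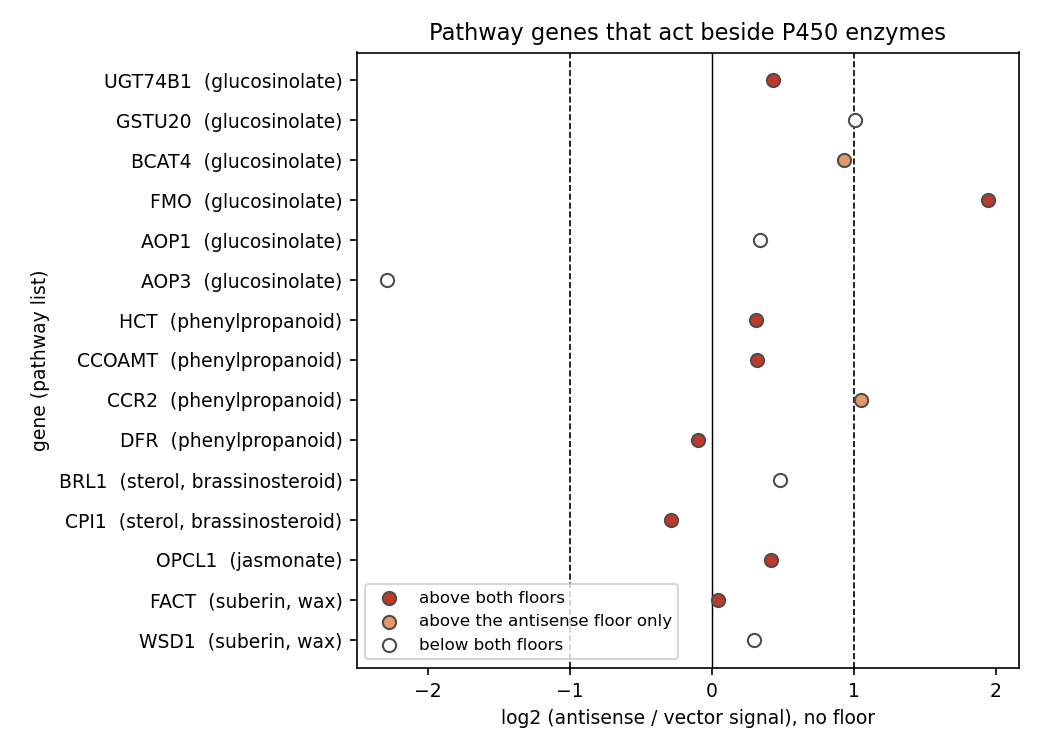
Log2 ratio of antisense over vector signal, from the deposited signals without a floor, for the 15 named pathway genes that act beside P450 enzymes. Red points are above both floors, orange points above the antisense floor alone, white points below both, and dashed lines mark 2-fold. FMO at 1.95, matched by symbol alone, is the single red point past a dashed line.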

How the data were processed

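The authors deposited 1 signal intensity for each probe set on each array, on a linear scale. They were made with MAS5 per the submitters' processing notes, and its version was not given in the sources used here. Array means after trimming 2% at each end were both 500, so the arrays shared a scale. Detection calls were not used here. Groups followed sample titles, since the genotype label of the antisense sample lacks the word antisense. Gene names came from an annotation table of the platform.

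Of 22810 probe sets, 64 are array controls. Floors were medians over the other 22746. Ratios were taken above both floors, as bounds with 1 signal below. Genes to be named were those past 2-fold, the highest and lowest ratios, the brightest, and genes in role lists, and in practice all 23 are given. Members, role lists and 6 pathway lists were chosen with earlier results of these data known. No test was run, with 1 array per group, and no sequence was used. The procedure was run on simulated data with shifts in bright probe sets alone. All 23 genes are dimmer than those, so the simulation does not cover ratios or bounds at their signals. Of 14 P450 role lists, 5 held a named member. Alternatives covered scaling, floor, pseudocount, fold threshold and choice of probe sets. The tools were Python 3.11.15 with matplotlib 3.10.9, statsmodels 0.14.6, scipy 1.17.1, pandas 2.3.3 and numpy 2.4.6.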

Additional observations from a re-analysis of the deposited data

How the results depend on the processing

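No paired analysis was possible because there was 1 array per group, which also means that none could be omitted. The 2-fold lower ratio of CYP71B22 lay between -1.59 and -1.02 over 8 alternatives. Scaling to the hybridization controls moved the P450 median to 0.30 and that of all probe sets to -0.22, and all 4 positive genes stayed positive. Counts followed the floor and threshold by construction. Shares over all probe sets under the other floors, the pseudocount and the other thresholds are not given here. The counts below were therefore not read as a result about P450 genes. Without a floor, dim probe sets enter the counts, and 42.9% of all probe sets below both floors were 2-fold or more apart. With the floor at the 25th percentile, 1 gene was 2-fold higher, and bounds past 2-fold were 2 higher and 1 lower. With the 75th, 1 gene stayed above both floors, 0 were 2-fold lower, and CYP71B22 became the 1 bound past 2-fold lower. With no floor, 7 were 2-fold higher and 6 lower. With a pseudocount at the 25th percentile, these were 3 and 2, with a median of 0.10 over all 23 genes. At 1.5-fold, 2 genes were higher and 1 bound was lower. At 3-fold, 0 were lower. Centring, quantile and loess normalization left these counts as they were, with medians of 0.52, 0.53 and 0.54. As each gene has 1 probe set, the choice of probe sets changed nothing. Dim signals limit most of the P450 genes found by name: 14 of 23 genes were below both floors.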
